A study of Mus musculus with 9 samples.

Results

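Open chromatin was followed across the Hox gene clusters, the 4 groups of homeobox genes named Hoxa, Hoxb, Hoxc and Hoxd. The members were fixed by name: 38 of the 39 mouse Hox genes, of 21627 protein-coding genes in all. The other one was not analysed here. Hoxa has 10 members here, Hoxb 10, Hoxc 9 and Hoxd 9. Each cluster window ran from the outermost ends of its members to 50 kb beyond them. The windows were chromosome 6, 52112417 to 52310880 for Hoxa, chromosome 11, 96144316 to 96418254 for Hoxb, chromosome 15, 102871131 to 103086856 for Hoxc, and chromosome 2, 74618225 to 74815142 for Hoxd (GRCm38). The data were ATAC-seq peak lists. In this assay the Tn5 transposase cuts accessible DNA, so a peak marks a stretch of open chromatin. Cell lines derived from primary mouse osteosarcomas, bone tumours, were compared. The R172H line was p53R172H/-, with 1 mutant allele and no other p53 allele. The R245W line was p53R245W/-, likewise with 1 mutant allele. The null line was p53-/- and had no p53. All were grown in DMEM with fetal bovine serum, and the labels name no treatment. Each genotype was represented by 1 line with 3 libraries, so genotype and line cannot be told apart. Whether a line's libraries are separate cultures is not stated in the labels. All p-values below therefore measure the spread between libraries, which may be technical.

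Hox genes encode transcription factors that tell cells their position along the head-to-tail axis of the embryo and along the limb. Within a cluster, genes with low paralogue numbers lie at 1 side and act towards the head and early, and genes with high numbers lie at the other side and act towards the tail and the tip of the limb. Genes with the same number in different clusters are paralogues with related homeodomains. In mesenchymal cells such as fibroblasts and bone precursors, the set of active Hox genes is a lasting record of where in the body the cells arose. Polycomb proteins keep silent Hox genes compact, and trithorax proteins keep active ones open.

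The lists held 72840 to 74352 peaks in the R172H libraries, 75314 to 79424 in the R245W libraries and 65199 to 65942 in the null libraries. Read depth is unknown. Of 10 osteoblast lineage markers, 8 had a peak within 1000 bp of a gene end in all 9 libraries. Bglap and Ibsp, markers of mature bone-forming cells, had none in any. Of 10 markers of leukocytes, endothelium, epithelium, muscle and neurons, 5 had no such peak in any library (Myog, Ptprc, Cdh5, Cdh1 and Pecam1). Cd68, a macrophage marker, and Rbfox3, a neuronal one, were open in all 9 libraries, and Myod1, a muscle regulator, in all but R172H replicate 2. Csf1r, a macrophage receptor, was open in all 3 R245W libraries, in no R172H library and in no null library. Epcam, an epithelial gene, was open in all 3 R245W libraries, in no R172H library and in 2 null libraries. Whether other cells had a part in the Hox results was not tested.

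Every cluster held peaks in every library, and the line with the most peaks was not the same at every cluster. The R172H line had the most peaks at Hoxc. The R245W line had the most at Hoxd and Hoxa. The null line had the fewest peaks at Hoxb and Hoxc. At Hoxa, 27, 27 and 29 peaks were listed in the R172H libraries, 32, 32 and 32 in the R245W libraries and 25, 26 and 28 in the null libraries. The R245W libraries stood above all others there, and the R172H and null libraries overlapped. At Hoxb, the R172H libraries had 35, 37 and 37 peaks, the R245W libraries 37, 37 and 38, and the null libraries 24, 25 and 28. Every library of a mutant line was above every null library, and the mutant lines overlapped. At Hoxc, the R172H libraries had 27, 28 and 26 peaks, the R245W libraries 21, 24 and 20, and the null libraries 13, 14 and 14. No libraries of different lines overlapped at Hoxc. At Hoxd, the R172H libraries had 10, 14 and 11 peaks, the R245W libraries 19, 20 and 19, and the null libraries 11, 12 and 11. Here the R245W libraries were above all others and the R172H and null libraries overlapped. Peaks were also counted in the 1 Mb on either side of the Hoxa and Hoxb windows. Beside Hoxa, R172H had 90 to 98 peaks, R245W 110 to 118 and null 76 to 79. Beside Hoxb, R172H had 166 to 174, R245W 161 to 171 and null 143 to 155. R245W was thus highest beside Hoxa as well, and null lowest beside Hoxb.

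**Figure D1:**
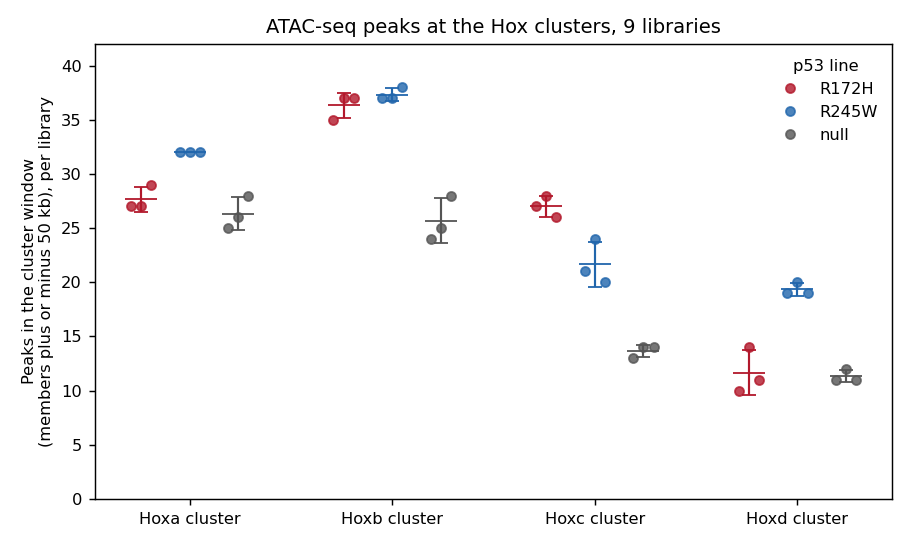
Peaks per library (y axis) in the window of each Hox cluster (x axis) for the R172H, R245W and null lines. Points are libraries, horizontal bars are means and error bars are SD (n = 3). The 3 lines are apart at Hoxc, with means of 27, 21.7 and 13.7, and the R245W libraries (19 or 20 peaks) lie above all others at Hoxd.

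The spread of the line means was tested exactly over all 280 ways to split the 9 libraries into 3 groups of 3. The same test was run on every 200 kb tile of the genome with a peak, and p-values were adjusted by the Benjamini-Hochberg method over all 10673 windows. Of these, 30.1% passed at 0.05. Hoxc passed (exact permutation test, one-sided p = 0.00357, the smallest possible; adjusted p = 0.0248), and Hoxa passed narrowly (exact permutation p = 0.0143, adjusted p = 0.0474). Hoxb and Hoxd did not pass (exact permutation tests, adjusted p = 0.0584 for each). Where 1 line stands apart and the other two are alike, as at Hoxd, 10 of the 280 splits can come out about as large, which puts p near 0.0357. With 3 against 3 libraries, an exact two-sided test of a pair cannot go below 0.1, and that value was reached by R172H and null at Hoxb and Hoxc, by R245W and null at all 4 clusters, and by R172H and R245W at Hoxa, Hoxc and Hoxd. Over all windows, every R172H library was above every null library in 35.2% and below in 17.8%, and every R245W library was above every null library in 38% and below in 8.71%. Every R172H library was above every R245W library in 21.5% and below in 30.2%. The Hoxa call was lost when lists were shortened to equal length (exact permutation test, adjusted p = 0.238) and when R172H replicate 3, null replicate 1, null replicate 2 or any of the R245W replicates was left out (adjusted p from 0.0582 to 0.0651). The Hoxc call was lost with no flank around the cluster (adjusted p = 0.0584, exact permutation test), while Hoxb and Hoxd passed with equal list lengths (exact permutation tests, adjusted p = 0.0256 for each). Equal lengths also turned differences between overlapping lines: R172H minus R245W at Hoxb was 4 in place of -1 peaks, and R172H minus null was -1.67 in place of 1.33 at Hoxa and -1.67 in place of 0.333 at Hoxd. With -log10 q of 5 or more, R172H minus R245W at Hoxb (1.33) and R172H minus null at Hoxd (below 0) turned as well.

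Merging the 9 lists gave 149 regions in the 4 windows, of 124221 in the genome. Of these, 49 were called in all 9 libraries, 15 in the R172H line only, 10 in the R245W line only and 1 in the null line only. A further 9 were shared by the mutant lines and absent from null. R245W and null shared 11 that R172H lacked, and R172H and null shared 0 that R245W lacked. Over all regions these classes took 29.4% (all 9 libraries), 9.83% (R172H only), 5.79% (R245W only), 2.74% (null only), 3.04% (both mutant lines), 6.21% (R245W and null) and 0.858% (R172H and null). Of the 149 Hox regions they took 32.9%, 10.1%, 6.71%, 0.671%, 6.04%, 7.38% and 0% in the same order, so most lay near the genome's shares. Called means a peak in 3 of 3 libraries of the line and 0 of 3 of the others, and the remaining 54 were mixed. Against null, the R172H line had 26 regions of its own (17.4% of the 149, against 14.5% of all regions), and null had 12 (8.05%, against 10.3%). The R245W line had 24 regions that null lacked (16.1%, against 10% of all regions), and null had 1 that R245W lacked (0.671%, against 4.03%). Between the mutants, 15 were in R172H alone (10.1%, against 11.5%) and 24 in R245W alone (16.1%, against 13.8%). These shares lay near those of the whole genome except in the comparison of R245W with null. That comparison gave 14 and 2 regions with lists of equal length, a setting for which the shares over all regions were not computed.

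The regions differed in strength. Strength is given as the percentile of the authors' -log10 q within a library's own list, a rank that describes a peak and is not compared between libraries. The 15 regions of R172H only had lowest percentiles from 11.7 to 84.8, and 7 of them exceeded 50. The 10 regions of R245W only were weak, from 0.703 to 26.1. The 11 shared by R245W and null ran from 7.28 to 76.8, with 5 above 50. The 49 regions called everywhere had a median merged width of 1385 bp. A merged width can grow with the number of libraries that add a peak. Before merging, the median width of Hox peaks was 707 to 838 bp per library.

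**Figure D2:**
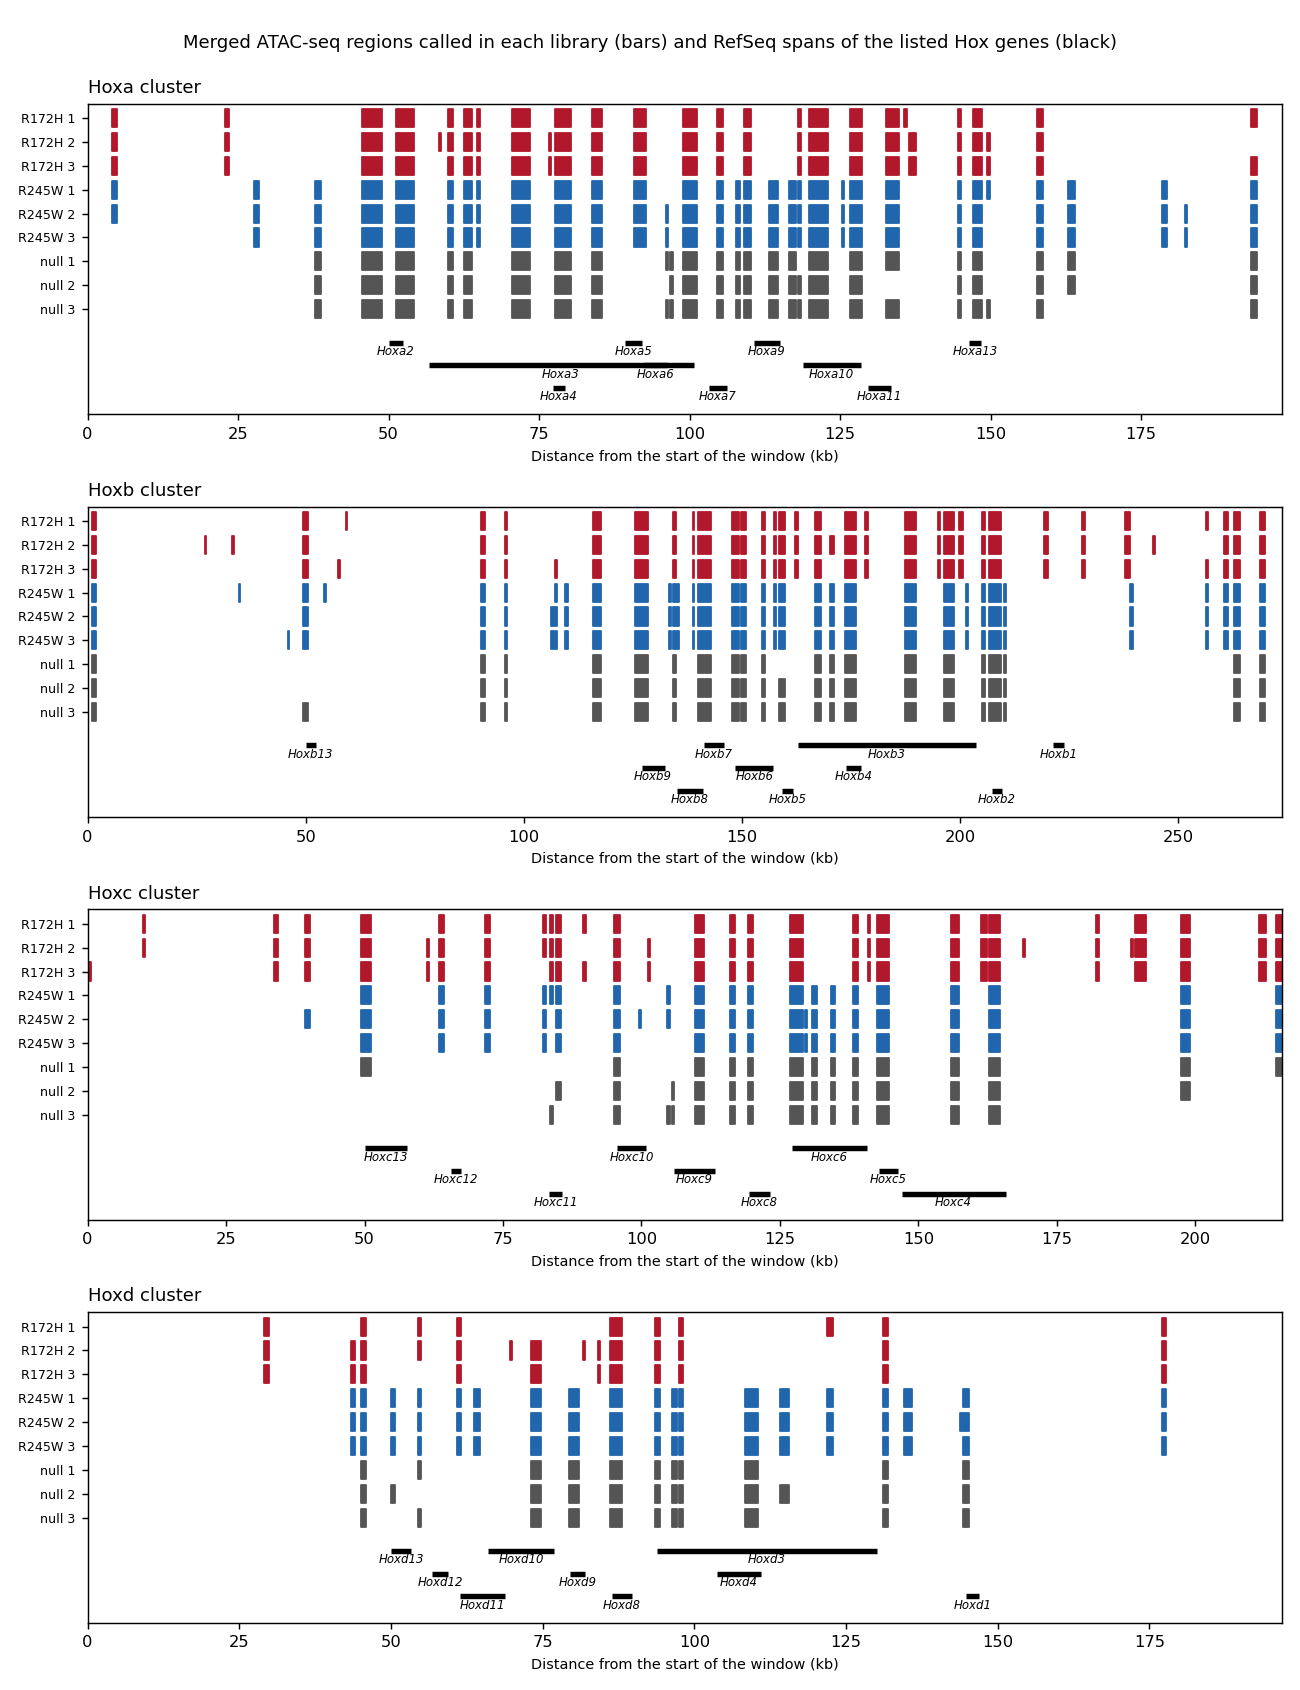
Merged regions called in each library (coloured bars, 1 track per library) along the 4 cluster windows, in kb from the window's start, with RefSeq spans of the listed Hox genes in black below. The R172H tracks are empty at Hoxd4 and Hoxd1, where all R245W and null libraries have a region. No library has a region over Hoxc12 itself. On either side of it all R172H and R245W libraries have a region and the null libraries have none. Many central regions of Hoxa, Hoxb and Hoxc are called in all 9 libraries.

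At Hoxd the R172H line lacked regions that the other lines shared. Peaks covered 6.32, 7.37 and 6.01 kb of the window in the R172H libraries, 17.2, 17.6 and 16.5 kb in the R245W libraries and 10, 10.8 and 9.66 kb in the null libraries. No libraries of different lines overlapped in this measure, and the cluster passed the exact permutation test when covered bases replaced peak counts (adjusted p = 0.00989). Elsewhere on chromosome 2 the R172H line had the most peaks, 6531 ± 81.2, against 6117 ± 156 in R245W and 4916 ± 37 in null (SD, n = 3 each). In the 1 Mb on either side of the window it had 49 to 51 peaks, against 68 to 71 in R245W and 46 to 50 in null. Those flanks gave R172H and null overlapping counts and R245W the highest.

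Some of these differences sit at promoters and others do not. The 250 bases upstream of the RefSeq start are given for 5 promoters of Hoxd members whose peak depends on the line, for that of Hoxd3, open in all 9 libraries, and for that of Hoxa5, taken up further on (RefSeq, GRCm38.p6, 5′ to 3′ on the gene's strand). Capitals mark TAATTA, a core motif of homeodomain proteins, and TGATTNAT, a motif bound by Pbx and Hox proteins together, found on either strand.
Hoxd9, chr2:74697513-74697762, plus strand: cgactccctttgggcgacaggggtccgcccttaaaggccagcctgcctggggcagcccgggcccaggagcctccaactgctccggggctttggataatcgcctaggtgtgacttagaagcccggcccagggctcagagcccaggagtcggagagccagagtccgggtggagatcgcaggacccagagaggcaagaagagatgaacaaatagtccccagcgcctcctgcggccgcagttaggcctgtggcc
Hoxd10, chr2:74691641-74691890, plus strand: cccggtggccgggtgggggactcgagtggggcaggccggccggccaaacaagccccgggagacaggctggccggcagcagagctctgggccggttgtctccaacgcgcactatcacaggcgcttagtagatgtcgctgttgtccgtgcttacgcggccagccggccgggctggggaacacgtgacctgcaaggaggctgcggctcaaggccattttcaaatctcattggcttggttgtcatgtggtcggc
Hoxd1, chr2:74762730-74762979, plus strand: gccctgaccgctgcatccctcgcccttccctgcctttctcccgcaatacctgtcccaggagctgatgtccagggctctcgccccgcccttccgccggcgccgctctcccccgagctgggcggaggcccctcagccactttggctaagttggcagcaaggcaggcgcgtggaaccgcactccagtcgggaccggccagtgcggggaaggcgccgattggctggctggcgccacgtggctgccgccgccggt
Hoxd11, first start, chr2:74679308-74679557, plus strand: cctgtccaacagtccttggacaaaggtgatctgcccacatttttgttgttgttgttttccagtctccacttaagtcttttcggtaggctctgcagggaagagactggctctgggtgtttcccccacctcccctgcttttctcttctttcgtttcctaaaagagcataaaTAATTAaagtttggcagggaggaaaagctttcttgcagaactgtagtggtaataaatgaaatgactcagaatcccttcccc
Hoxd11, second start, chr2:74682073-74682322, plus strand: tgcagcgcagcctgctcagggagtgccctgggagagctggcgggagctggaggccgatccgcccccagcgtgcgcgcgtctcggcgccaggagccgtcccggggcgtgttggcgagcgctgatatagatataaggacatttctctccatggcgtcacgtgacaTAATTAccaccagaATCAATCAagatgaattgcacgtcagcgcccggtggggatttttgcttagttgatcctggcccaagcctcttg
Hoxd3, chr2:74711743-74711992, plus strand: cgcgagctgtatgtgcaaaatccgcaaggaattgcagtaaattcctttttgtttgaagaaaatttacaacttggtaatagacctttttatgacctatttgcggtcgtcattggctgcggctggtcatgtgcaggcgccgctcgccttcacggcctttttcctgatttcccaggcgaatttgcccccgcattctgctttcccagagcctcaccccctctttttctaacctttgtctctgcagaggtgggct
Hoxa5, chr6:52204588-52204837, minus strand: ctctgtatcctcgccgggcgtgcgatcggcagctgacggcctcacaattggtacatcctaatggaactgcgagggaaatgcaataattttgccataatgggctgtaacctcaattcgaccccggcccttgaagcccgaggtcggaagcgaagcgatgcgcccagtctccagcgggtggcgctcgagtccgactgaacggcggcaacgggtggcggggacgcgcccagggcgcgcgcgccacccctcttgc

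Hoxd9, a gene of the posterior group, had a region at its start (chr2:74697547-74699212) in all R245W and null libraries and in no R172H library. A separate weak region further inside the gene (chr2:74699862-74700122) was called in R172H replicate 2 alone, at the 3.64 percentile. The peak at the start ranked at the 90, 87.1 and 89.9 percentile in the R245W libraries and at 76.8, 77.4 and 78.4 in the null libraries. This was the strongest Hox region missing from R172H. Hoxd10, its neighbour towards the tail side, had a peak at its promoter, which lies inside its RefSeq span, in the same 6 libraries. The region around that promoter (chr2:74691292-74692987) ranked at the 91.9, 91 and 89 percentile in the R245W libraries and at 77.9, 79.4 and 76.5 in the null libraries. It was also called, off the promoter, in R172H replicates 2 and 3, at the 8.99 and 11 percentile. In the gene span plus or minus 5 kb, peaks covered 417, 1312 and 1219 bp at Hoxd10 in the R172H libraries, 4474, 4606 and 4475 bp in the R245W libraries and 2659, 2742 and 2444 bp in the null libraries. The lines did not overlap, and R172H was lowest (exact permutation test, adjusted p = 0.0155).

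On the head side of the cluster, Hoxd3 and Hoxd4 stood out. Hoxd3, whose RefSeq span also takes in Hoxd4, was covered over 2225, 1679 and 1551 bp in the R172H libraries, 7226, 6733 and 6370 bp in the R245W libraries and 4734, 5210 and 4551 bp in the null libraries. Its own promoter was nevertheless called in all 9 libraries, so the difference lies inside and beside the gene. Hoxd4 had no cover in any R172H library, against 2669, 2456 and 2385 bp in the R245W libraries and 1941, 2318 and 1896 bp in the null libraries. Inside the gene the peaks lay in 1 region (chr2:74726562-74728651), and no library had a peak at the promoter. A region beyond the gene (chr2:74732390-74733860), called in all R245W libraries and in null replicate 2, added to the cover. Hoxd1, the most head-side gene of this cluster, had no cover in any R172H library. It had 774, 1118 and 1039 bp in the R245W libraries and 499, 658 and 591 bp in the null libraries. Each of these 3 genes differed between lines in the exact permutation test (adjusted p = 0.0155 for each), though with a flank of 1 kb the line with the most cover at Hoxd4 was null (adjusted p = 0.016). At Hoxd1 the peaks were weak, at the 24.5 to 41.4 percentile in R245W and the 7.28 to 22.9 percentile in null. Hoxd8, between the affected parts, was covered over 2093 to 2685 bp in R172H, 2516 to 2542 bp in R245W and 2106 to 2206 bp in null, and did not pass (exact permutation test, adjusted p = 0.187).

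At the tail side of Hoxd the R245W line had the most cover. Hoxd11, which acts with its paralogue Hoxa11 in the development of the forearm, had 589, 875 and 494 bp in the R172H libraries, 1843, 2041 and 1901 bp in the R245W libraries and 701, 689 and 671 bp in the null libraries. R245W stood apart and the other two overlapped, and the test was missed narrowly (exact permutation test, adjusted p = 0.054) but passed with lists of equal length (adjusted p = 0.0153). The first start of Hoxd11 had a peak in all R172H and R245W libraries and in no null library, and the second start had 1 in all R245W libraries alone. Hoxd13, a gene of digit and genital development, had 939, 1102 and 335 bp in the R172H libraries, 1548, 1664 and 1607 bp in the R245W libraries and 632, 710 and 590 bp in the null libraries. R245W was again above all others (exact permutation test, adjusted p = 0.0457), a call that was lost with lists of equal length (adjusted p = 0.0586). It was also lost when any library other than R172H replicate 3 was left out, with adjusted p from 0.0592 to 0.0739. The Hoxd13 end lay within 1000 bp of a peak in all R245W libraries, in no R172H library and in null replicate 2 alone.

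At Hoxa the R172H line differed around the Hoxa9 gene, and the null line differed at Hoxa5. Hoxa9, a regulator of blood stem cells and of limb patterning, had 1183, 1117 and 1323 bp of cover in the R172H libraries, 4344, 4708 and 4043 bp in the R245W libraries and 3706, 3563 and 3733 bp in the null libraries. Hoxa10, which patterns the limb and the uterus, had 2987, 3255 and 3074 bp in the R172H libraries, 5787, 5842 and 5508 bp in the R245W libraries and 4814, 4974 and 5414 bp in the null libraries. R172H was lowest at both without overlap (exact permutation tests, adjusted p = 0.0155 for each). With a flank of 1 kb the line with the most cover at Hoxa10 was null in place of R245W (exact permutation test, adjusted p = 0.016). Of the 4 Hoxa regions shared by R245W and null and absent from R172H, 3 lay between Hoxa7 and Hoxa10, and the strongest of them (chr6:52225559-52227112), inside Hoxa9 and 258 bp from its start, ranked at the 72.3 to 78 percentile in R245W and the 62.8 to 67.2 percentile in null. The fourth (chr6:52150157-52151264) lay on the head side of Hoxa2.

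Hoxa5, a gene of lung and rib cage development, had the strongest Hox region that depended on the line. The region at its start (chr6:52203246-52205088) was called in all libraries of both mutant lines, at the 94.9, 94.4 and 94.4 percentile in R172H and the 88.4, 88.6 and 89.3 percentile in R245W, and in no null library. The nearest peak to that gene end lay 3953 to 4762 bp away in the null libraries. Over the gene plus or minus 5 kb, cover was 2995, 2762 and 2847 bp in the R172H libraries, 2557, 3033 and 2986 bp in the R245W libraries and 1477, 1109 and 1345 bp in the null libraries. The mutant lines overlapped and both were above null, and with 1 line apart the test was missed (exact permutation test, adjusted p = 0.058), though it passed with lists of equal length (adjusted p = 0.0153). On the head side of Hoxa no member passed. Hoxa3, whose RefSeq span takes in Hoxa4, Hoxa5 and Hoxa6, had 13794 to 15532 bp in R172H, 13785 to 15052 bp in R245W and 12177 to 12531 bp in null, with both mutant lines above null (exact permutation test, adjusted p = 0.058). Hoxa4 had 3597 to 4136 bp in R172H, 3377 to 3838 bp in R245W and 3152 to 3225 bp in null, again with the mutant lines above null (exact permutation test, adjusted p = 0.0627). Hoxa2, a gene of hindbrain and jaw patterning, had 4547 to 5626 bp in R172H, 4865 to 5107 bp in R245W and 4508 to 4570 bp in null (exact permutation test, adjusted p = 0.199). At the other side Hoxa13, of digit and genital development, had 1449 to 2269 bp in R172H, 1513 to 2296 bp in R245W and 1398 to 1887 bp in null (exact permutation test, adjusted p = 0.47).

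At Hoxc the tail side was open in the mutant lines and nearly empty in null. Hoxc13, a gene of hair and nail formation, had 1695, 2001 and 2013 bp of cover in the R172H libraries, 1232, 978 and 1165 bp in the R245W libraries, and 558, 0 and 0 bp in the null libraries. Hoxc11 had 2157, 1834 and 1716 bp in the R172H libraries, 1358, 911 and 947 bp in the R245W libraries, and 0, 247 and 332 bp in the null libraries. Hoxc12, chosen after its values were seen, had 1211, 1540 and 1908 bp in the R172H libraries, 1018, 957 and 1427 bp in the R245W libraries and 0 in every null library. R172H was the highest on average and null the lowest at all 3 genes, and R172H and R245W overlapped at Hoxc12. The exact permutation test called them (adjusted p = 0.0155 at Hoxc13 and Hoxc11 and 0.0237 at Hoxc12), but Hoxc11 was lost with equal list lengths (adjusted p = 0.0729). A region beside Hoxc12 (chr15:102942908-102943865), which reaches close to the long noncoding RNA gene Hotair, ranked at the 83.2, 82.1 and 84.1 percentile in R172H and the 84.9, 86.7 and 83.9 percentile in R245W. No null library had a peak in it.

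Beyond both sides of Hoxc, the R172H line had regions that no other line had. The strongest (chr15:102904819-102905562), outside Hoxc13, ranked at the 84.8, 85 and 87.2 percentile. Another lay beyond Hoxc4 (chr15:103060219-103062181), at the 71.9, 75 and 73.3 percentile. Of the 6 Hoxc regions of R172H only, 4 lay beyond the outermost members. In the 1 Mb on either side of the window the lines had 151 to 165 peaks in R172H, 156 to 163 in R245W and 148 to 154 in null. In the centre of Hoxc the genes differed in their order of lines. Hoxc6 had 4731 to 5237 bp of cover in R172H, 6245 to 6317 bp in R245W and 5465 to 5776 bp in null, with R172H lowest (exact permutation test, adjusted p = 0.0155). Hoxc5 had 3035 to 3259 bp in R172H, 2819 to 2960 bp in R245W and 2650 to 2842 bp in null. R172H was highest there (exact permutation test, adjusted p = 0.0237), a call that was lost with a flank of 1 kb (adjusted p = 0.21). That call was also lost when R245W replicate 1 or 2 or null replicate 1 or 3 was left out (adjusted p from 0.0527 to 0.0796). Hoxc4, the head-side member, had 5464, 5769 and 5267 bp in the R172H libraries, 5239, 5396 and 5419 bp in the R245W libraries and 4269, 4473 and 4362 bp in the null libraries. Null was lowest there (exact permutation test, adjusted p = 0.0356), a call that was lost with -log10 q of 5 or more (adjusted p = 0.0538), with equal list lengths (adjusted p = 0.055), without R172H replicate 2 (adjusted p = 0.0632) and without R245W replicate 1 (adjusted p = 0.055). Hoxc10 did not differ beyond the spread, with 978 to 1284 bp in R172H, 1044 to 1313 bp in R245W and 806 to 1389 bp in null (exact permutation test, adjusted p = 0.904).

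At Hoxb the null line had the fewest peaks, and the R172H line had regions of its own on the head side. Hoxb9, which acts with other group 9 genes in the spinal cord and rib cage, had 3244, 3066 and 2935 bp of cover in the R172H libraries, 4324, 4307 and 4314 bp in the R245W libraries and 1637, 2120 and 2675 bp in the null libraries. No lines overlapped (exact permutation test, adjusted p = 0.0155). Hoxb3, whose RefSeq span takes in Hoxb4, had 11012, 11965 and 11824 bp in the R172H libraries, 11348, 11701 and 11077 bp in the R245W libraries and 9435, 10065 and 9593 bp in the null libraries. Null was lowest and the mutants overlapped (exact permutation test, adjusted p = 0.0457). That call was lost in 7 of the 9 fits that each left out a library (adjusted p from 0.0518 to 0.0646), and kept without R172H replicate 1 and without R245W replicate 2. With a flank of 10 kb the most cover was in R245W (exact permutation test, adjusted p = 0.0223).

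The head side of Hoxb held 7 regions of R172H only. The strongest lay inside the Hoxb3 span (chr11:96339192-96339795), at the 61, 59.1 and 66.6 percentile. Another overlapped the end of Hoxb3 that faces Hoxb5 (chr11:96306476-96307254), at the 56.7, 54.8 and 52.3 percentile. A further 3 lay around Hoxb1, a gene of hindbrain segment identity that was chosen after its values were seen. Hoxb1 had 1382, 872 and 1026 bp of cover in the R172H libraries and 0 in every R245W and null library. With 1 line apart the test was missed (exact permutation test, adjusted p = 0.058), and no peak reached within 1000 bp of either end of Hoxb1 in any library. On the far side of Hoxb1 a region of R172H only (chr11:96382075-96383408) and a region of R245W only (chr11:96383411-96384035) were 2 bp apart, so both lines were open at this place and null was not. Hoxb13, set apart from the rest of its cluster, had 1015, 1080 and 1065 bp in the R172H libraries, 993, 814 and 1263 bp in the R245W libraries and 0, 0 and 434 bp in the null libraries. Its difference missed the threshold (exact permutation test, adjusted p = 0.0501) and passed with lists of equal length (adjusted p = 0.0153). Hoxb4 had 2274 to 2737 bp in R172H, 2657 to 2922 bp in R245W and 2479 to 2784 bp in null (exact permutation test, adjusted p = 0.484).

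Over all 38 members, each of which had some cover, 22 differed between lines at an adjusted p under 0.05 in this test (57.9%, against 46.9% of the 17599 protein-coding genes with any cover). The line with the most cover was R172H for 7 of the 22, R245W for 14 and null for 1. The line with the least was R172H for 10, R245W for 0 and null for 12. Of the 8249 genes called in all, R172H was highest at 29.6%, R245W at 54% and null at 16.4%, and R172H was lowest at 43%, R245W at 10% and null at 47%. The order of the lines among the members was thus that of the genome. By cluster, 4 of 10 Hoxa members passed, 5 of 10 Hoxb, 6 of 9 Hoxc and 7 of 9 Hoxd. Windows of neighbouring Hox genes overlap, so these are not separate differences. Of the 22 calls, 11 kept their call and their highest line under every alternative run for them other than the replicate block, which were 12 for Hoxc12 and Hoxd12 and 13 for the other genes (Hoxa9, Hoxa11, Hoxb9, Hoxc6, Hoxc12, Hoxc13, Hoxd1, Hoxd3, Hoxd9, Hoxd10 and Hoxd12).

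Pair by pair, every R245W library had more cover than every null library at 30 members and less at 1, Hoxb7 (over all genes 45.2% and 11.2%). Every R172H library had more cover than every null library at 17 members and less at 10 (32.3% and 24.8% of all genes). Every R172H library had more than every R245W library at 5 members and less at 16 (18.1% and 40.7%). The median difference over the members was 671 bp for R245W minus null, 381 bp for R172H minus null and -59.7 bp for R172H minus R245W. Over all genes these medians were 210, 46.7 and -148 bp. The R172H minus null comparison had opposite signs in different clusters, with medians of 471 bp at Hoxa, 666 bp at Hoxb, 524 bp at Hoxc and -583 bp at Hoxd. The comparisons with null share the null libraries.

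**Figure D3:**
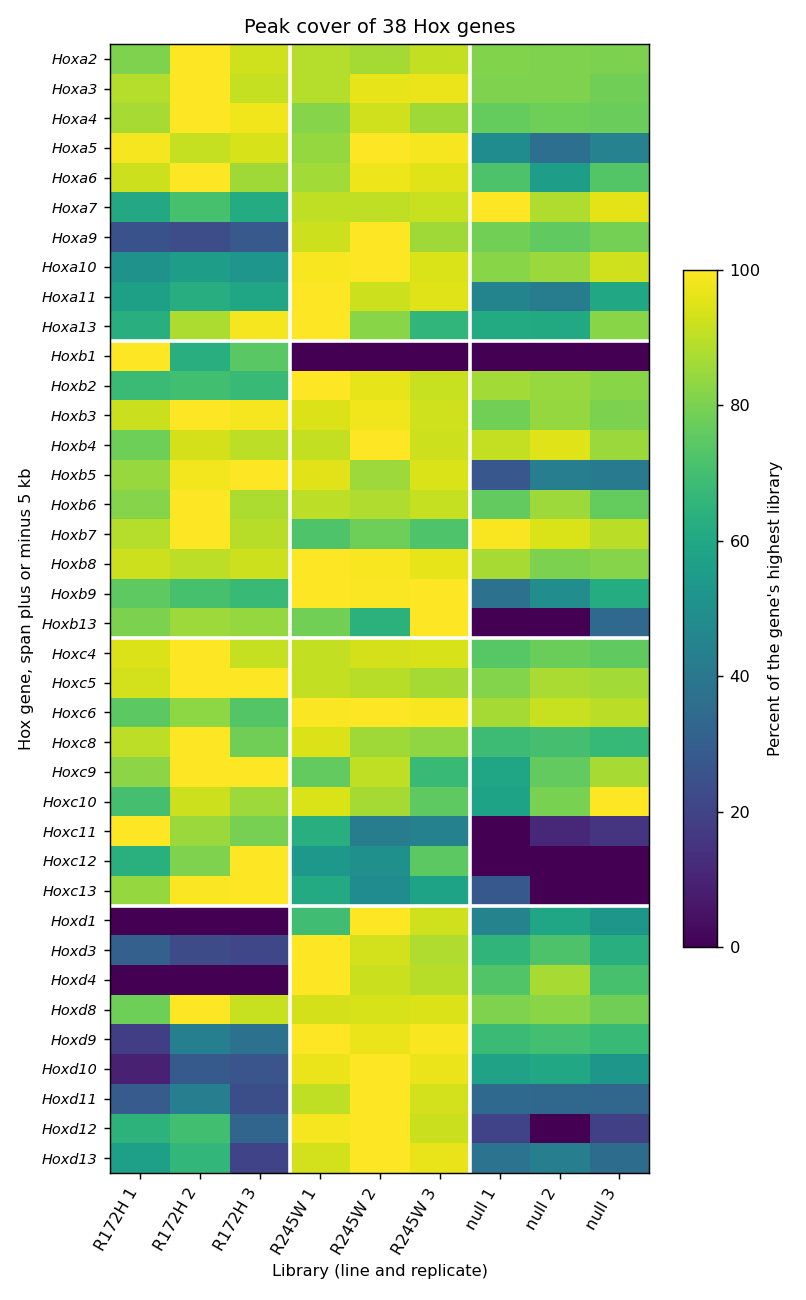
Base pairs covered by peaks in each of 38 Hox genes (rows, span plus or minus 5 kb, in cluster and paralogue order) in each library (columns), as a percent of the gene's highest library. Dark blocks mark Hoxd1, Hoxd3, Hoxd4, Hoxd9 and Hoxd10 and Hoxa9 in the R172H libraries, Hoxc11 to Hoxc13 in the null libraries, and Hoxb1 in the R245W and null libraries.

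Sorted by paralogue number, the null line was lowest in the low and the high groups and overlapped R172H in the middle groups. The outermost members of each cluster are all in the low or the high groups, and only these take in the flanks of 50 kb. The null lists were also the shortest. Whether either had a part in this pattern was not tested. Each merged region was assigned to the member with the nearest end, and each library's peaks in those regions were counted. For groups 1 to 4, the R172H libraries had 44, 47 and 44 peaks, the R245W libraries 42, 43 and 40, and the null libraries 31, 31 and 31. For groups 5 to 8, the R172H libraries had 20, 20 and 20, the R245W libraries 24, 27 and 26, and the null libraries 19, 20 and 21. For groups 9 to 13, the R172H libraries had 36, 40 and 40, the R245W libraries 43, 44 and 43, and the null libraries 24, 26 and 29. In groups 9 to 13 no libraries of different lines overlapped. This total hides a difference between clusters in the R172H line, which had 13 peaks per library in groups 9 to 13 of Hoxc. R245W had 9 ± 2 and null 4 ± 1 there (SD, n = 3). In the same groups of Hoxd the R172H line had 5.67 ± 2.08 peaks, against 8 ± 0 in R245W and 4 ± 0 in null. There the R172H libraries, with 4, 8 and 5 peaks, overlapped both other lines. Group 4 also leaned to R172H, with 16 ± 2.65 peaks, against 11.7 ± 0.577 in R245W and 9.33 ± 1.15 in null. Of its 19 regions, 10 were assigned to Hoxc4, an outermost member. Some of those lay in the flank, up to 48765 bp beyond the gene, and several flank regions were called in R172H only. The count therefore does not describe the group 4 genes alone. Hoxc12 had 2 regions assigned to it, both called in every library of both mutant lines and in no null library, and Hoxd12 had none assigned.

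Gene ends gave a coarser picture. A gene counted as open where either of its ends had a peak no further than 1000 bp away. Of 38 members, 20 were open in all 9 libraries, as were 55.6% of all protein-coding genes. Another 4 were open in none (Hoxb1, Hoxc12, Hoxd10 and Hoxd12), against 30.5% of all protein-coding genes, and 14 varied. Hoxa5, Hoxb3 and Hoxd11 were open in every R172H library and no null one (7.89% of members, against 3.23% of all genes), and in the reverse direction Hoxd1 and Hoxd4 (5.26%, against 1.29%). Open in all R245W and no null libraries were Hoxa5, Hoxc4 and Hoxd11 (7.89%, against 3.34%), and in the reverse direction Hoxd4 (2.63%, against 0.55%). Between the mutants, Hoxb3 was open in R172H alone (2.63%, against 1.63%) and Hoxc4, Hoxd1 and Hoxd13 in R245W alone (7.89%, against 2.6%). With 1 to 3 members per direction, a single gene moves these shares by 2.63 percentage points.

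Some of these end calls rest on where a shared peak stops. The Hoxc4 end had its nearest peak at 927 bp in each R245W library, at 1727 to 1731 bp in the R172H libraries and at 1077 to 1168 bp in the null libraries, and the region itself was called in all 9. The Hoxd4 end had its nearest peak at 1352 to 1414 bp in R245W and at 509 to 583 bp in null, again within a shared region. In R172H, by contrast, the nearest peak to the Hoxd4 end was 11538 to 12800 bp away. With lists of equal length, and with -log10 q of 5 or more, the calls of Hoxd11 in R245W over null and of Hoxd13 were lost, and the q limit also ended that of Hoxd1 in null over R172H. With a limit of 2000 bp, the calls of Hoxb3, Hoxc4 and Hoxd13 and that of Hoxd4 in null over R245W were lost. The calls at Hoxa5, Hoxb3, Hoxd1 and Hoxd11, and that at Hoxd13 between R245W and R172H, each came with a region called in 1 line and not in the other.

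**Figure D4:**
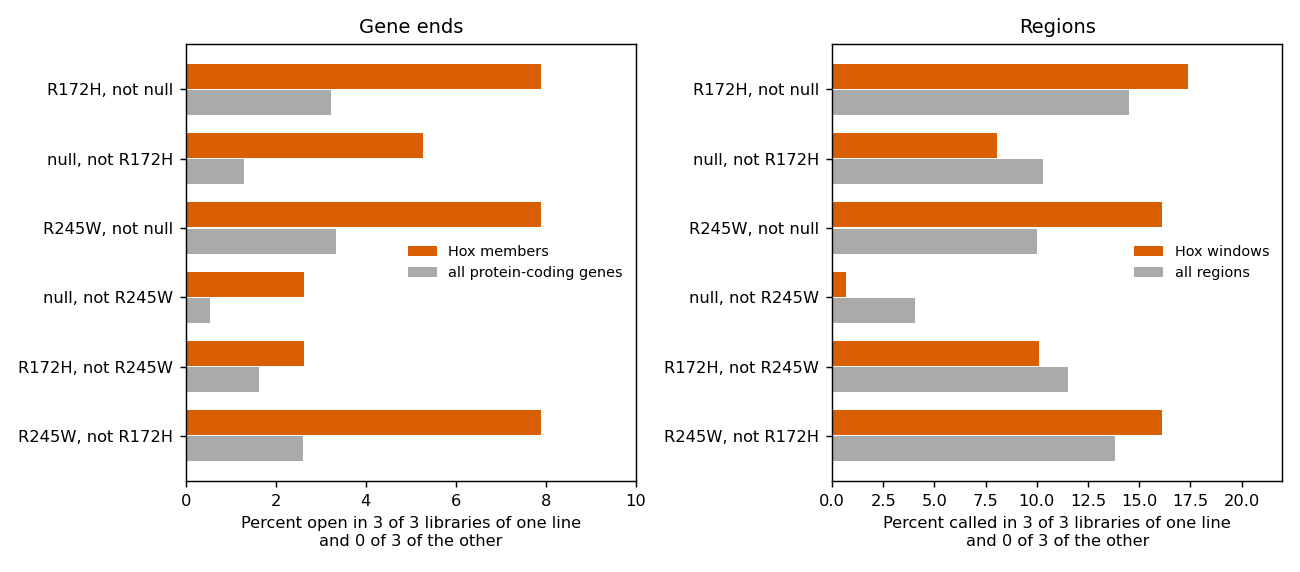
Share of Hox members or Hox regions (orange) and of all protein-coding genes or all regions (grey) that were open or called in 3 of 3 libraries of the first line named and in 0 of 3 of the second (x axis, percent). Hox gene ends reach 7.89% in 3 of the 6 directions, and Hox regions exceed the genome's share most for R245W and not null, 16.1% against 10%.

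The clusters also hold microRNA genes, which repress messenger RNAs that pair with their seed, bases 2 to 8. Their mature 5p strands (RefSeq, GRCm38.p6, seed in capitals) are shown because they fall into 2 seed families that lie in different clusters, so that the clusters can be compared at related genes.
miR-10a-5p, Hoxb cluster, chr11:96317186-96317208, plus strand: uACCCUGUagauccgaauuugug
miR-10b-5p, Hoxd cluster, chr2:74726074-74726096, plus strand: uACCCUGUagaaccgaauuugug
miR-196a-5p, from Mir196a-1 in Hoxb and Mir196a-2 in Hoxc, chr11:96265187-96265208 and chr15:102973365-102973386, plus strand: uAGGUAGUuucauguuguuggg
miR-196b-5p, Hoxa cluster, chr6:52230129-52230150, minus strand: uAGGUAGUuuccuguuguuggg

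Mir10b, which lies within Hoxd4, was 9685 to 9759 bp from the nearest peak in the R172H libraries, 425 to 593 bp in the R245W libraries and 531 to 619 bp in the null libraries. Its seed partner Mir10a in Hoxb was 850 to 908 bp from a peak in R172H, 713 to 908 bp in R245W and 1138 to 1140 bp in null. The distances at Mir10a lie on both sides of the 1000 bp limit, but its nearest region was called in all 9 libraries. In the other family, Mir196b, between Hoxa9 and Hoxa10, was 370 to 392 bp from a peak in R172H, 0 to 21 bp in R245W and 288 bp in null. Mir196a-1 had no peak within 3110 bp in any library. Mir196a-2 was 6104, 619 and 849 bp from a peak in the R172H libraries, 2366 to 6107 bp in R245W and 2361 to 6142 bp in null. Mir615 lay inside a peak in all 9 libraries.

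Other noncoding genes of the clusters were read by the same limit of 1000 bp. Of 15 found of 16 listed, 6 had an open end in all 9 libraries. Hotair, a long noncoding RNA gene in Hoxc, and Mir10a, whose nearest region was shared by all libraries, were open in all R172H and R245W libraries and in no null library. Hoxb5os, antisense at Hoxb5, was open in R172H alone, at the same region as the Hoxb3 end. Haglr, at Hoxd1, was open in all R245W and null libraries and in no R172H library, as was Mir10b. Hoxa11os was open in all R245W libraries, in no null library and in 2 R172H libraries. Peaks carry no strand, so an antisense gene and its partner cannot be told apart. Of 13 coding genes flanking the clusters, 11 were open in all 9 libraries. Evx2, next to Hoxd13, was open in all R245W libraries, in 2 R172H libraries and in no null library.

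Among the genes that act with or on Hox genes, differences between lines at gene ends were found in the retinoic acid list. All 9 cofactor genes of the Pbx, Meis and Pknox families, which bind DNA with Hox proteins, were open in all 9 libraries. So were 16 of 17 Polycomb and trithorax genes, with Cbx7 open in none. Of 15 genes of retinoic acid metabolism and response and of the Cdx family, inputs that switch on Hox genes in the embryo, 6 were open in all 9 libraries and 5 in none. Aldh1a1 and Aldh1a2, which make retinoic acid, were open in all R172H libraries and in no R245W or null library. Cyp26c1, which breaks it down, was open in all R172H and null libraries and in no R245W library. That makes 2 of the 15 open in R172H and not null, against 3.23% of all genes, and 3 of the 15 open in R172H and not R245W, against 1.63%. Of the ParaHox genes, relatives of the Hox genes outside the clusters, 2 of 4 were open in all 9 libraries, and none was open in all libraries of 1 line and in none of another. Among protein-coding genes as a whole, 55.6% were open in every library and 30.5% in none.

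Promoter sequence was at hand for 22 of the 38 members, in 24 promoters. From 250 bases before to 50 after the start, 6 promoters had a peak in all 9 libraries, 6 in none and 12 in some. All 3 libraries had a peak at 9 promoters in R172H, 16 in R245W and 10 in null. Peaks were not counted in this way over all promoters, and the R245W lists were the longest. These counts are therefore not read as particular to Hox genes. The 250 bases upstream had a median of 12.5 CG pairs, against 6 in all 32851 promoters, and a median G+C content of 58.6%, against 52.4%. Among promoters not yet described, that of Hoxb4 had a peak in all R172H and R245W libraries and in no null library, and those of Hoxa11 and of an inner start of Hoxa10 had 1 in all R245W libraries alone. At Hoxb4 and at the inner start of Hoxa10 the region itself was called in all 9 libraries, and the promoter lies at its edge. The Hoxa11 promoter lies inside a region (chr6:52245112-52247157) called in all but null replicate 2. That region ranked at the 50.5 to 60.3 percentile in R245W and the 6.06 to 10.5 percentile in R172H. In null replicates 1 and 3 it ranked at the 9.04 and 1.24 percentile. The promoters that R172H lacked and the other lines had ranged widely, with 13 CG pairs at Hoxd9, 20 at Hoxd10 and 24 at Hoxd1. On both strands, TAATTA was found in 2 of the 24 Hox promoters (8.33%, against 4.84% of all), both at Hoxd11. TGATTNAT was found in 2 (8.33%, against 2.82%), at Hoxa2 and at the second start of Hoxd11. TATAAA was found in 4 (16.7%, against 12.4%), TGACAG, a Meis motif, in 2 (8.33%, against 15.9%), and CCCTC, part of the CTCF core, in 14 (58.3%, against 60.5%). The DR5 motif of retinoic acid receptors was found in none of the 24 and in 3 of all promoters. Overlaps between motifs were counted for each motif. These are matches of letters and not measured sites.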

How the data were processed

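For each of the 9 ATAC-seq libraries, 1 deposited peak list was used. The submitters' processing notes name MACS2 2.1.0, Bowtie 1.1.2, Trimmomatic 0.33, bcl2fastq 2.17 and deepTools, and the build GRCm38. The sources used here give no settings, read filters or Tn5 offset. Without that offset, peak edges would differ by several bases. The deposited lists give each peak a score, a fold ratio over background, a -log10 p-value and a -log10 q-value, all by the authors. The lowest -log10 q was 1.3. Within each list, q served to rank peaks or to filter them.

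Chromosomes 1 to 19 and X were used. Peaks of all lists were merged on 1 bp of overlap. Cover is the number of bases under peaks. Counts per 200 kb tile and cluster window, and cover per gene plus or minus 5 kb, were tested exactly over 280 partitions of the libraries, with Benjamini-Hochberg adjustment over the whole table and a threshold of 0.05. The gene table (RefSeq, GRCm38.p6) gives spans without exons, so gene ends were used, and whether a region is exonic or intronic is not stated. The members and lists were chosen with earlier results of these data known. Values per library are given for members whose end was called in 1 line and not in another, and for up to 2 members per cluster with the largest range of line means. Other members singled out were chosen after their values were seen. The tests were checked on simulated data. Libraries with the same replicate number did not deviate together (correlations from -0.0104 to 0.0407). Python 3.11.15, numpy 2.4.6, pandas 2.3.3 and matplotlib 3.10.9 were used.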

Additional observations from a re-analysis of the deposited data

How the results depend on the processing

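Each genotype is 1 line, depth is unknown, and only peaks that passed the authors' threshold can be seen, so weak openness below it is missed. The alternatives were planned except those named as chosen after seeing the data. All p-values here are adjusted and from the exact permutation test. For the counts of gene ends and regions in this section, shares over all genes or regions were not computed. Changes in those counts can therefore not be set against the genome. With -log10 q of 5 or more, Hoxa gave 0.0567 and Hoxb 0.0464, gene ends numbered 6 for R172H and not null and 5 for R245W and not null, and regions of null and not R245W numbered 0. With lists of equal length, Hoxa gave 0.238, Hoxb and Hoxd 0.0256 each, and regions numbered 14 for R245W and not null and 2 for null and not R245W. With no flank, Hoxb gave 0.0393, Hoxc 0.0584 and Hoxd 0.0459, and regions numbered 14 for R172H and not null and 7 for R172H and not R245W. With a flank of 100 kb, Hoxb gave 0.0459. With base pairs covered, Hoxb gave 0.0443 and Hoxd 0.00989. Per 10000 peaks of the library, an alternative chosen after seeing the data, Hoxa gave 0.136 and Hoxb and Hoxd 0.0389 each. The cause of these changes was not tested.

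Regions of null and not R245W numbered 2 when called in 2 or more of 3 libraries and 5 with summits plus or minus 250 bp. Gene ends of null and not R172H numbered 1 within 500 bp and 4 at the start site only. Gene ends of null and not R245W numbered 0 within 500 bp, within 2000 bp, at the start site only, and when a differing region was required, which was chosen after seeing the data. Start sites were at hand for 22 of the 38 members, and the others counted as not open at the start site. Gene ends of R172H and not R245W numbered 0 there. That could not come out otherwise for Hoxb3, the 1 gene called as reported, since it had no start site to read. Leaving out 1 library gave Hoxa from 0.0277 to 0.0651, Hoxb from 0.0487 to 0.0651, and 1 to 2 regions of null and not R245W. Without 1 library, Hoxc stayed between 0.0261 and 0.0427, and 17 to 23 members passed. The share of all genes moved as well. It was 39.3% without R172H replicate 1, where 23 members passed, against 46.9% as reported.

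Libraries share replicate numbers, but same-numbered libraries did not deviate together (correlations from -0.0104 to 0.0407, against -0.0404 to 0.0305 for other numbers). A replicate block leaves 36 splits and a smallest exact permutation p of 0.0278. After adjustment a call can then pass only if a large share of all genes or windows reaches that value. With the block, Hoxa and Hoxc gave 0.142, and 0 members and 0% of all genes passed.

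Among the 22 members that passed as reported, the line with the most cover changed in these cases. With equal lists, Hoxb2 gave 0.0586 and Hoxb8 0.091. With a flank of 1 kb, Hoxb8 gave 0.0368, Hoxa7 0.0425, Hoxa10 0.016, Hoxc5 0.21 and Hoxd4 0.016. With a flank of 10 kb, Hoxb5 gave 0.0286, Hoxc5 0.0146 and Hoxb3 0.0223. Hoxb5 also did so without R172H replicate 3 (0.0641) and without R245W replicate 2 (0.0646), and leaving out 1 library gave it from 0.0272 to 0.0646. Hoxb1, Hoxc12 and Hoxd12 gave no value with a flank of 1 kb, since no library had a peak there.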
